A study of Mus musculus with 24 samples.

Results

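The interferon regulatory factors are transcription factors that share a DNA-binding domain and act on the promoters of interferon and immune genes. The 8 genes Irf1, Irf2, Irf3, Irf4, Irf5, Irf7, Irf8 and Irf9 were taken by their symbols, 8 of the 23420 genes listed for each library, and each was found in all 24 libraries. RNA was measured in CD8+ T cells of 6 mice, each sampled at 0, 4, 8 and 24 h, so every genotype and time had 3 libraries. The mice labelled cKO (mice 1 to 3) were E8i-cre+, Tcf7FL/FL, OTI+, and the mice labelled WT (mice 4 to 6) were E8i-cre-, Tcf7FL/FL, OTI+. All mice thus carried the floxed Tcf7 alleles and the transgenic OT-I T cell receptor, and the cre transgene and the deletion it makes cannot be told apart. E8i-cre is driven by an enhancer of the Cd8 locus, so it acts in CD8+ T cells. No age of the mice is given in the sources. Cells came from spleen and lymph nodes by CD8 microbeads. The 0 h cells were taken before plating, and the later cells had been cultured with IL2 (6 ng/mL) on plate-bound anti-CD3 and anti-CD28 (1 ug/mL).

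Members of the family differ in when they act. IRF3 and IRF7 are present as latent proteins that kinases activate after viral RNA or DNA is sensed, and they switch on type I interferon genes. IRF9 carries the signal of the type I interferon receptor to DNA, IRF1 activates and IRF2 mostly represses interferon-stimulated promoters, and IRF4 and IRF8 bind DNA with partners such as BATF and JUN or PU.1. In T cells IRF4 is known as a factor that T cell receptor signalling induces and that supports the expansion of CD8+ effector cells.

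Libraries held 5846265 to 9700397 expected counts, and 13694 to 17214 genes had a count. CD8 T cell markers (Cd3d, Cd3e, Cd3g, Cd8a, Cd8b1) summed to 5000 to 5710 TPM at 0 h and to 884 to 1050 TPM at 24 h, so the labelled cell type was present in every library. Of the B cell markers 1 was abundant, Cd79b, with a mean of up to 48.0 TPM at 0 h, while Cd79a, Ms4a1, Pax5, Ebf1 and Cd22 averaged at most 0.88 TPM in any group. Dendritic cell markers summed to at most 10.1 TPM in any library, mainly Zbtb46 and Xcr1, with Flt3 and Clec9a averaging at most 0.31 TPM. The markers of monocytes, macrophages and neutrophils summed to at most 5.23 TPM with S100a8 and S100a9 at 0 in every group, and those of NK cells and of CD4 T cells to at most 1.43 and 0.87 TPM. Gene-level Tcf7 was not called between the genotypes at 0, 4 or 8 h, when it averaged higher in the libraries labelled cKO, and was lower at 24 h (37.2 TPM in cKO against 69.4 TPM in WT, log2 fold change −0.90, SE 0.126, adjusted p = 0.000221, edgeR), and since the counts cover the whole gene they do not check the deletion. On the first principal component (55% of the variance), along which the times followed each other, 3 libraries stood apart from their groups. They were the 4 h library of cKO mouse 3 (−35.7, other 4 h libraries −24.5 to −21.4) and the 8 h libraries of cKO mouse 2 (24.0) and WT mouse 5 (25.8, other 8 h libraries 5.14 to 14.4).

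RefSeq (GRCm38.p6) lists 11 start sites for the 8 genes. The 250 bases before each start were searched on both strands for 4 motifs. The windows below are those of the 3 genes with a match and, for comparison, that of Irf7. Irf7 differed between the genotypes at an adjusted p under 0.05 (edgeR) at 8 h only, and not when WT mouse 4, 5 or 6 was left out. The motifs were the core of the interferon-stimulated response element, GAAANN followed directly by GAAA, which interferon regulatory factors bind, and the STAT element known as GAS, TTCNNNGAA. The other motifs were the AP-1 element TGANTCA and the TCF/LEF element CTTTGAT. Capitals mark matches to the response element core and to GAS, and each sequence runs 5′ to 3′ towards the start site.
Irf1, chr11:53769764-53770013, plus strand: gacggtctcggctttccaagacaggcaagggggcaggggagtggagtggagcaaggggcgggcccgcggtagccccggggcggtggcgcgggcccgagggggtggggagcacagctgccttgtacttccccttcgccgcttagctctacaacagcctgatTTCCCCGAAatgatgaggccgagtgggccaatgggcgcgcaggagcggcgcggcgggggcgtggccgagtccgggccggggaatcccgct
Irf8, chr8:120736108-120736357, plus strand: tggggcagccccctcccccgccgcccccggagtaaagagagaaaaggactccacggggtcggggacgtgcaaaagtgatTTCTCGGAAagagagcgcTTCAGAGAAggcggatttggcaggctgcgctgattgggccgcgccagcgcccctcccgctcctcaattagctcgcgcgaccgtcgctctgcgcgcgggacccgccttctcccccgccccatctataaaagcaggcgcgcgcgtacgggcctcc
Irf2, chr8:46739495-46739744, plus strand: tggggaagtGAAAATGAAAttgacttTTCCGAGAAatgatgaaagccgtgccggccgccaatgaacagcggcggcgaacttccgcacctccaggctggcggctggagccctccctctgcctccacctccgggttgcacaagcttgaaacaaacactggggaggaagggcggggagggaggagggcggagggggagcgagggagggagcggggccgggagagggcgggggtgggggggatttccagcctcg
Irf7, chr7:141266425-141266674, minus strand: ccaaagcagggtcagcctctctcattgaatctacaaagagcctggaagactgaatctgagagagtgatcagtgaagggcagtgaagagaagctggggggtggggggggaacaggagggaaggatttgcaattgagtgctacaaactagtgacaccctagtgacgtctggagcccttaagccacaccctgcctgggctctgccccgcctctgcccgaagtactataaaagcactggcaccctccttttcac

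The window of Irf1 held 1 GAS match, 90 to 82 bases before its start (TTCCCCGAA, chr11:53769924-53769932). Irf8 held 2, at 171 to 163 bases (TTCTCGGAA) and 153 to 145 bases (TTCAGAGAA) before its start. Irf2 held a response element core at 241 to 232 bases (GAAAATGAAA) and a GAS match at 224 to 216 bases (TTCCGAGAA), which did not overlap. The windows of the other 5 members, Irf3, Irf4, Irf5, Irf7 and Irf9, held neither, and no member's window held AP-1 or TCF/LEF letters. Among all 32851 windows of this length, 2.98% held the response element core, 7.02% GAS, 6.75% AP-1 and 3.21% TCF/LEF. A match describes the letters and does not show a bound site.

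The make-up of the family's RNA differed between the times. All later cells had been plated with IL2 and both antibodies, so stimulation, IL2 and culture cannot be told apart. Per length, the 8 genes summed to 587 ± 164, 1577 ± 47.6, 923 ± 93.1 and 659 ± 33.4 TPM in cKO cells at 0, 4, 8 and 24 h, and to 509 ± 4.30, 1654 ± 81.3, 868 ± 36.3 and 641 ± 14.2 TPM in WT cells (SD, n = 3 each). Before plating, Irf1 held 41.9% of the summed TPM in cKO cells and 43.5% in WT cells, followed by Irf7, Irf9 and Irf3 with 16.1 to 20.1% each, while Irf4, Irf5 and Irf8 held at most 0.32% each. At 4 h Irf1, Irf8 and Irf4 were the 3 most abundant members, with 34.5, 27.7 and 23.5% in cKO and 34.6, 32.4 and 21.0% in WT cells. At 24 h Irf8 alone held 45.8 ± 0.58% in cKO and 45.4 ± 0.906% in WT cells. Irf7 was by then the least abundant, at 0.187% in cKO and 0.0784% in WT cells.

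**Figure D1:**
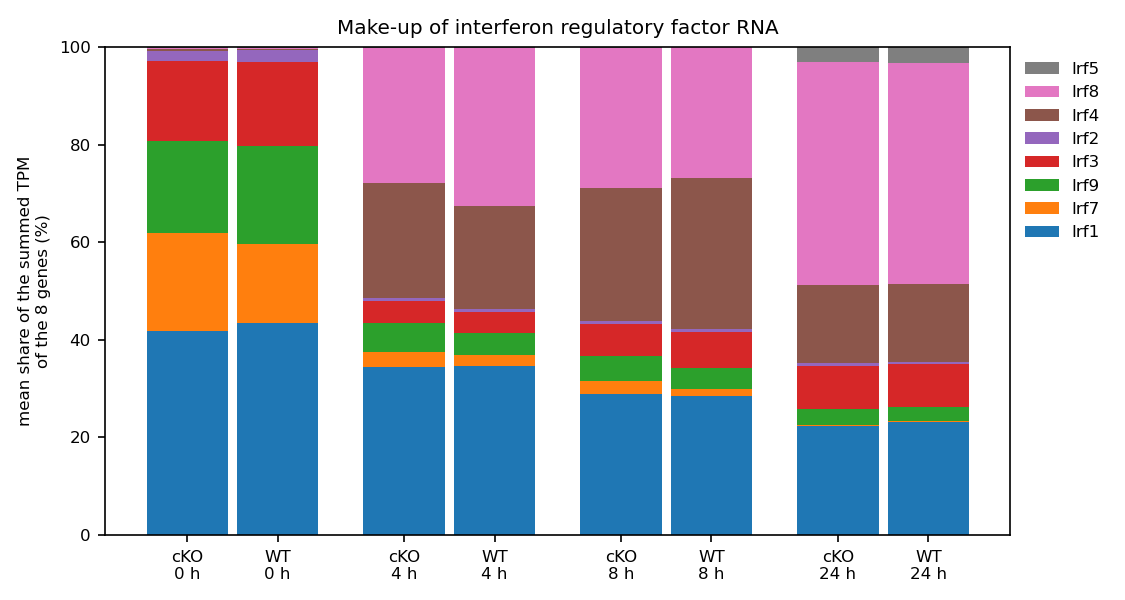
Share of the summed TPM of the 8 interferon regulatory factors held by each gene (vertical axis, percent, mean of 3 libraries) in cKO and WT cells at 0, 4, 8 and 24 h (horizontal axis), each bar split by gene. Irf1, Irf7, Irf9 and Irf3 fill most of the 0 h bars, Irf4 and Irf8 appear from 4 h, and Irf8 holds 45.8% in cKO and 45.4% in WT cells at 24 h.

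All 8 genes passed the filter on low counts among the 11470 genes tested. At 0 h the summed counts over 3 libraries were small for Irf4 (147 in cKO, 56 in WT), Irf5 (42 in cKO, 22 in WT) and Irf8 (64 in cKO, 50 in WT), so folds against 0 h are imprecise for these 3. At 4 h against 0 h, 5 of the 8 were called in cKO cells, 3 higher and 2 lower, where 57.2% of all genes tested were called, 29.6% higher and 27.6% lower. In WT cells 7 of 8 were called, 4 higher and 3 lower, where 59.0% of all genes were, 30.0% higher and 29.1% lower. At 8 h against 0 h 6 of 8 were called in each genotype, 2 higher and 4 lower, beside 65.6% of all genes in cKO (33.1% higher, 32.4% lower) and 67.4% in WT cells (33.4% higher, 34.0% lower). At 24 h all 8 were called in each genotype, 3 higher and 5 lower, beside 76.3% of all genes in cKO (37.3% higher, 39.0% lower) and 77.0% in WT cells (36.9% higher, 40.1% lower). Most genes tested moved with time, so nothing is read from the number of members called, and the description below rests on their sizes and order. In bulk libraries of 1000 sorted cells, fewer cells with an RNA and less of it per cell cannot be told apart.

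Irf4 and Irf8, the lymphoid and myeloid members that bind with partner factors, were nearly absent before plating and among the most abundant at 4 h. For Irf4 (chromosome 13, 30749226 to 30766976, plus strand, GRCm38), 0 h libraries held 0.77, 3.39 and 1.81 TPM in cKO mice 1, 2 and 3, against 1.34, 0.63 and 0.83 TPM in WT mice 4, 5 and 6. The 4 h libraries held 284, 399.8 and 431 TPM in cKO cells and 361, 355 and 325 TPM in WT cells. The ranges at 0 and 4 h did not overlap in either genotype, and those of cKO and WT cells overlapped at both times. The log2 fold change of 4 h over 0 h was 7.62 (SE 0.298, adjusted p = 2.53e-13) in cKO and 8.67 (SE 0.331, adjusted p = 1.67e-13) in WT cells, above 99.8% and 99.9% of the genes tested. At 8 h Irf4 was lower on average, at 220, 249 and 288 TPM in cKO cells and 293, 227 and 287 TPM in WT cells. This step from 4 h was called in neither genotype (log2 −0.52, adjusted p = 0.0522 in cKO and −0.32, adjusted p = 0.232 in WT, edgeR). The 4 and 8 h ranges overlapped in cKO cells. Its 24 h values were 103, 108 and 104.5 TPM in cKO cells and 104, 101 and 101 TPM in WT cells, below every 4 h and 8 h library. The step of 24 h over 8 h was called in both genotypes (log2 −1.31, SE 0.209, adjusted p = 4.14e-05 in cKO and −1.50, SE 0.209, adjusted p = 9.49e-06 in WT).

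Irf8 (chromosome 8, 120736358 to 120756694, plus strand), whose product pairs with PU.1 in myeloid and B cells, held 0.61, 3.26 and 0.17 TPM in cKO cells and 2.16, 1.06 and 0.99 TPM in WT cells at 0 h. At 4 h it reached 519.7, 501 and 286 TPM in cKO cells and 498, 552 and 560.3 TPM in WT cells. The low cKO value was that of mouse 3, and the ranges of cKO and WT cells overlapped. That library stood nearer to 0 h on the first principal component and held the highest Irf4 (431 TPM) and Irf1 (633 TPM) of its group. A link of its place there with its Irf8 value was not tested. Against 0 h the log2 fold change was 8.32 (SE 0.430, adjusted p = 1.83e-11) in cKO and 8.71 (SE 0.443, adjusted p = 1.38e-11) in WT cells. In contrast to Irf4, Irf8 held its level from 8 h on: 238, 265 and 288 TPM in cKO cells and 234, 265 and 197 TPM in WT cells at 8 h were followed by 318, 297 and 289 TPM in cKO cells and 285, 297 and 291 TPM in WT cells at 24 h. The step of 24 h over 8 h was not called (log2 0.15, 95% interval −0.43 to 0.72 in cKO and 0.22, −0.36 to 0.79 in WT), although the ranges did not overlap, and it was called in fits of only the groups compared (adjusted p = 0.0341 in cKO and 0.0363 in WT). The step of 8 h over 4 h was called in WT (log2 −1.15, SE 0.275, adjusted p = 0.00275) and not in cKO cells (−0.69, SE 0.273, adjusted p = 0.0524), where it was called without the 4 h library of mouse 3 (−0.94, adjusted p = 0.00986). Without mouse 6 the WT call was lost (−1.01, adjusted p = 0.0633).

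**Figure D2:**
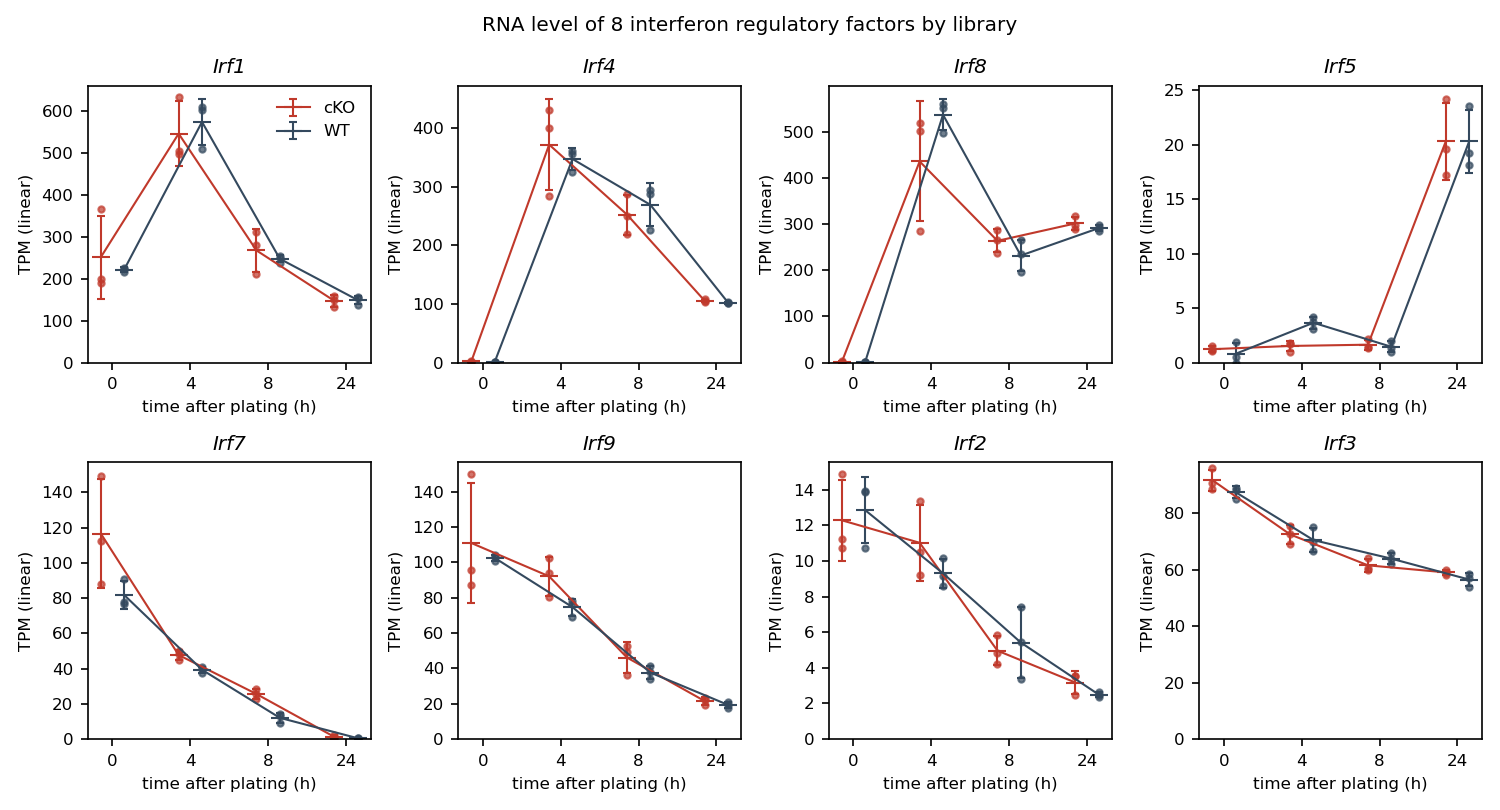
TPM of each of the 8 genes (vertical axis, linear, from 0) in every library at 0, 4, 8 and 24 h after plating (horizontal axis, evenly spaced times), with cKO libraries left of WT libraries. Points are libraries, horizontal ticks the means of 3, error bars the SD and lines join the means. Irf1, Irf4 and Irf8 peak at 4 h, Irf5 is near 20.3 TPM only at 24 h, and the means of Irf7 and Irf9 decline from 0 h on.

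Irf1 (chromosome 11, 53770014 to 53778374, plus strand), an activator induced by interferon gamma, was already high before plating and peaked at 4 h. Its 0 h values were 189, 365 and 199 TPM in cKO cells and 215, 223 and 226 TPM in WT cells, and its 4 h values 498, 504 and 633 TPM in cKO cells and 509, 600.2 and 609 TPM in WT cells at 4 h. Every 4 h library lay above every 0 h library, and the cKO value that stood out at 0 h was that of mouse 2. The log2 fold change of 4 h over 0 h was 1.20 (SE 0.185, adjusted p = 2.12e-05) in cKO and 1.46 (SE 0.186, adjusted p = 2.06e-06) in WT cells. At 8 h the level was back near that of 0 h, 281, 210.1 and 310.2 TPM in cKO cells and 254, 238 and 249 TPM in WT cells, and 8 h over 0 h was not called (0.20, adjusted p = 0.349 in cKO and 0.31, adjusted p = 0.15 in WT). Without mouse 2 that comparison was called in cKO cells (0.70, adjusted p = 1.74e-06) and in WT cells (0.31, adjusted p = 0.00269), which share the fitted spread. In WT cells every 8 h library lay above every 0 h library, and an edgeR fit of only those groups called the rise (0.31, adjusted p = 0.00385). The 24 h values were 159, 149 and 132.5 TPM in cKO cells and 156, 153 and 138 TPM in WT cells, below every 0 h library. Against 0 h the fall was −0.70 (SE 0.185, adjusted p = 0.00241) in cKO and −0.53 (SE 0.185, adjusted p = 0.0156) in WT cells. The cKO call was lost in a fit of only the groups compared (adjusted p = 0.0886), and the WT call without mouse 4, 5 or 6 (0.0638, 0.0839 and 0.131).

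Irf5 (chromosome 6, 29526625 to 29541871, plus strand), which acts downstream of Toll-like receptors in myeloid and B cells, was the late member. Its 0 h values were 1.12, 1.55 and 1.02 TPM in cKO cells and 0.49, 0 and 1.93 TPM in WT cells, and its 8 h values 1.42, 1.34 and 2.17 TPM in cKO cells and 2.02, 1.01 and 1.32 TPM in WT cells. At 24 h it reached 24.2, 19.6 and 17.2 TPM in cKO cells and 19.2, 23.6 and 18.1 TPM in WT cells. Each 24 h library was above every earlier library of either genotype. The step of 24 h over 8 h was 3.59 on the log2 scale (SE 0.348, adjusted p = 4.21e-10) in cKO and 3.75 (SE 0.352, adjusted p = 2.10e-10) in WT cells. At 4 h cKO libraries held 1.75, 1.82 and 1.01 TPM and WT libraries 3.04, 4.16 and 3.77 TPM, without overlap. In cKO cells neither 4 h over 0 h (log2 0.39, adjusted p = 0.494) nor 8 h over 4 h (0.10, adjusted p = 0.884) was called. In WT cells 4 h over 0 h was higher (2.29, SE 0.461, adjusted p = 8.83e-05) and 8 h over 4 h lower (−1.31, SE 0.414, adjusted p = 0.0111), a call lost without the 8 h libraries of mice 2 and 5 (adjusted p = 0.0642). The WT 0 h level rests on 22 summed counts. Whether the change from 0 to 4 h differed between the genotypes was tested directly as an interaction, which edgeR did not call (log2 −1.90, adjusted p = 0.587). Of the 2905 exon bases annotated for Irf5, 411 are shared with Tnpo3 on the opposite strand, and since Smart-seq2 does not mark the strand, reads there cannot be assigned by strand.

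Irf7 (chromosome 7, 141262706 to 141266481, minus strand), the inducible activator of type I interferon genes, showed the steepest decline of the family. Its 0 h values were 112, 149.5 and 88.2 TPM in cKO cells and 90.8, 77.9 and 76.7 TPM in WT cells. The 4 h values were 44.8, 48.1 and 50.2 TPM in cKO cells and 39.6, 40.9 and 37.6 TPM in WT cells, and the 8 h values 28.7, 22.7 and 25.4 TPM in cKO cells and 14.2, 8.88 and 13.1 TPM in WT cells. By 24 h 2.48, 0.58 and 0.72 TPM remained in cKO and 0.58, 0.29 and 0.63 TPM in WT cells. Within a genotype the ranges of successive times did not overlap. Over 24 h against 0 h the log2 fold change was −6.52 (SE 0.271, adjusted p = 6.85e-17) in cKO and −7.30 (SE 0.313, adjusted p = 1.22e-16) in WT cells, and 0.235% and 0.105% of the genes tested lay lower. On the log2 scale most of this fall came after 8 h. The step of 24 h over 8 h was −4.44 (SE 0.294, adjusted p = 3.82e-12) in cKO cells. For WT cells it was −4.67 (SE 0.376, adjusted p = 1.48e-10). Its 24 h end rests on summed counts of only 36 (cKO) and 15 (WT). Counted in TPM, most was lost before 8 h. The cKO mean fell from 116.6 at 0 h to 25.6 at 8 h, then to 1.26 at 24 h. The WT mean fell from 81.8 to 12.1, then to 0.5.

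Irf9 (chromosome 14, 55603571 to 55610030, plus strand), the DNA-binding subunit of the interferon-activated ISGF3 complex, declined more evenly. Its mean was 111 ± 34.0, 92.0 ± 11.1, 46.1 ± 8.77 and 21.5 ± 2.24 TPM in cKO cells and 102.5 ± 1.79, 74.6 ± 4.86, 37.6 ± 3.71 and 19.3 ± 1.68 TPM in WT cells at 0, 4, 8 and 24 h (SD, n = 3 each). The 24 h over 0 h change was −2.30 (SE 0.147, adjusted p = 1.81e-14) in cKO and −2.34 (SE 0.148, adjusted p = 1.46e-14) in WT cells. At 4 h over 0 h Irf9 was not called in cKO (−0.19, adjusted p = 0.236) and was called in WT cells (−0.36, SE 0.138, adjusted p = 0.0275). The WT call was lost with the mouse as a replicate block (adjusted p = 0.0526) and without mouse 4, 5 or 6 (adjusted p = 0.168, 0.110 and 0.115). In cKO mice 1 and 3 Irf9 was higher at 4 h than at 0 h (93.8 against 87.2 TPM and 102 against 95.6 TPM). In cKO mouse 2 it was lower (80.1 against 149.8 TPM).

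Irf2 and Irf3 also fell. Irf2 (chromosome 8, 46739732 to 46847458, plus strand), the repressor, was at 10.7 to 14.9 TPM in cKO cells and 10.7 to 13.9 TPM in WT cells at 0 h and at 2.45 to 3.54 TPM in cKO cells and 2.35 to 2.67 TPM in WT cells at 24 h. The change was −1.87 (SE 0.215, adjusted p = 7.69e-10) in cKO and −2.32 (SE 0.222, adjusted p = 9.68e-12) in WT cells, and none of it was called by 4 h (−0.08, adjusted p = 0.744 in cKO and −0.37, adjusted p = 0.111 in WT, called without mouse 4 at −0.57, adjusted p = 0.0494). Irf3 (chromosome 7, 44997648 to 45002848, plus strand), the constitutive partner of Irf7 in antiviral signalling, was the steadiest member, at 88.6 to 95.9 TPM in cKO cells and 85.0 to 89.0 TPM in WT cells at 0 h and 58.2 to 60.0 TPM in cKO cells and 53.9 to 58.5 TPM in WT cells at 24 h. Its change was −0.56 (SE 0.090, adjusted p = 8.21e-07) in cKO and −0.59 (SE 0.090, adjusted p = 3.16e-07) in WT cells. At 4 h it was already lower (−0.25, adjusted p = 0.0165 in cKO and −0.22, adjusted p = 0.0388 in WT), calls lost without mouse 1 or 2 in cKO (adjusted p = 0.0791 and 0.0659) and without mouse 1, 2, 4, 5 or 6 in WT cells (0.0546 to 0.176).

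From 4 to 8 h and from 8 to 24 h the family's calls were mostly declines. For 8 h over 4 h, 4 of 8 were called in cKO (Irf1, Irf2, Irf7, Irf9, all lower; 40.4% of all genes were called and 19.6% were lower) and 6 of 8 in WT cells (these and Irf5 and Irf8, all lower; 41.6% called, 19.7% lower). For 24 h over 8 h, 6 of 8 were called in cKO (Irf5 higher, Irf1, Irf2, Irf4, Irf7 and Irf9 lower, beside 57.3% of all genes called, 25.2% higher and 32.1% lower) and 7 of 8 in WT cells (these and Irf3, the last lower, beside 58.7% called, 24.7% higher and 34.1% lower). Calls of these steps that a library decided were Irf2 at 8 h over 4 h in WT, lost without mouse 5 (adjusted p = 0.0848), and Irf2 at 24 h over 8 h in cKO, lost without mouse 1 or 3 (0.0717 and 0.136). Irf3 at 24 h over 8 h in WT was lost without mouse 3 or 5 (0.0848 and 0.0772). Irf4 at 8 h over 4 h, not called in cKO cells (−0.52, adjusted p = 0.0522), was called with the replicate block (−0.51, adjusted p = 0.0398) and without mouse 1 (−0.59, adjusted p = 0.000496), and in WT cells (−0.32, adjusted p = 0.232) without mouse 1 (adjusted p = 0.0136).

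Between the genotypes 1 of the 32 tests of a member at a time was called, Irf7 at 8 h. None of the 8 genes was called at 0, 4 or 24 h, where 0.445%, 0.820% and 0.105% of all genes tested were, and 1 of 8 was called at 8 h, where 0.183% were and 0.148% were higher. At an unadjusted p under 0.05, 5 of the 32 passed in edgeR. Of all 11470 genes tested, 845, 1354, 1139 and 423 passed at 0, 4, 8 and 24 h. DESeq2 called 2 of the 32 after adjustment. Its share over all genes is not given here, so nothing is read from that number. Irf7 RNA was higher in every cKO library than in every WT library at 4 h, without a call, and at 8 h, as the values above show. How many of all genes differed between the genotypes without overlap is not given here. Nothing is thus read from such a separation alone, for any gene or sum. At 8 h the Irf7 mean was 25.6 ± 2.97 TPM in cKO cells and 12.1 ± 2.80 TPM in WT cells (SD, n = 3 each), from 556 and 279 summed counts. The log2 fold change was 1.04 (SE 0.214, 95% interval 0.60 to 1.48, adjusted p = 0.0369 by edgeR's quasi-likelihood test), and 98.0% of the genes tested lay lower. The call was lost without WT mouse 4, 5 or 6 (adjusted p = 0.0799, 0.456 and 0.178), without the 8 h libraries of mice 2 and 5 (0.94, adjusted p = 0.260), and with limma on log2(TPM + 0.1) (adjusted p = 0.247). The log2 value stayed between 0.90 and 1.14 in all 16 alternatives.

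Some marker sums also differed without overlap between the genotypes at 8 h. The 7 dendritic cell markers summed to 5.69 to 7.27 TPM in cKO and 3.83 to 4.80 TPM in WT cells, and were likewise higher in every cKO library at 4 h (8.63 to 10.1 TPM in cKO, 4.50 to 7.29 TPM in WT) and 24 h (8.19 to 9.66 TPM in cKO, 5.60 to 5.97 TPM in WT). Most of the 8 h sum was Zbtb46 (3.54 TPM in cKO, 2.68 TPM in WT) and Xcr1 (1.89 TPM in cKO, 1.23 TPM in WT), while Flt3, Itgax and Clec9a averaged at most 0.163 TPM and Flt3 was at 0 in WT cells. At 8 h the 7 B cell markers summed to 3.28 to 6.66 TPM in cKO and 1.35 to 3.09 TPM in WT cells, and the 5 CD8 T cell markers to 1250 to 1450 TPM in cKO and 1000 to 1200 TPM in WT cells. Their part in the Irf7 result was not tested.

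Irf7 was also higher on average in cKO cells at the other times, without a call. The log2 fold change was 0.49 at 0 h (95% interval 0.13 to 0.84, adjusted p = 0.405), 0.23 at 4 h (−0.15 to 0.62, adjusted p = 0.678) and 1.27 at 24 h (0.09 to 2.45, adjusted p = 1). The 0 h value was called without cKO mouse 3 (0.69, adjusted p = 0.0423) and with no filter on low counts (0.56, adjusted p = 0.0016), and was 0.27, not called, without cKO mouse 2. The 24 h value rests on 36 counts in cKO and 15 in WT cells, and was 0.35 without cKO mouse 1, which held 2.48 TPM. Whether the genotype difference itself changed with time was tested as an interaction. For Irf7 it was not called at 8 h against 0 h (0.55, SE 0.275, 95% interval −0.02 to 1.12, adjusted p = 0.635).

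**Figure D3:**
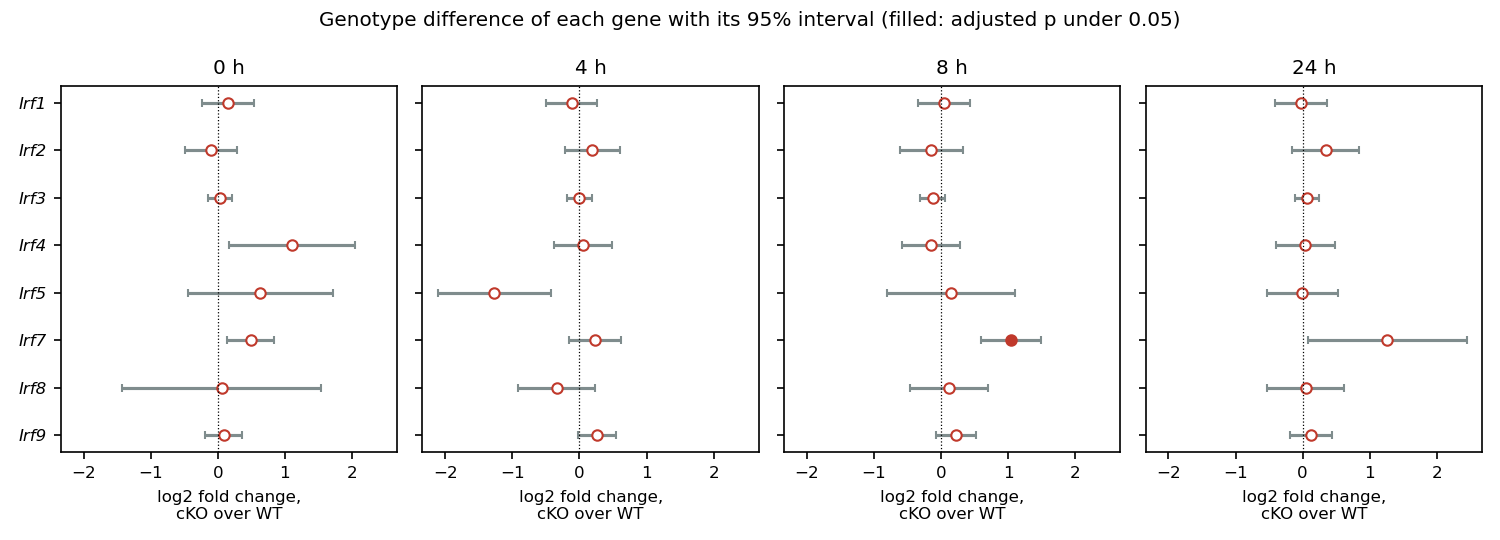
Log2 fold change of cKO over WT cells (horizontal axis) for each of the 8 genes (rows) at 0, 4, 8 and 24 h (panels). Bars are 95% intervals, and a point is filled where the adjusted p is under 0.05. Irf7 at 8 h (1.04) is the filled point, and the open points whose intervals leave 0 out are Irf5 at 4 h (−1.27), Irf4 at 0 h (1.10) and Irf7 at 0 h (0.49) and 24 h (1.27).

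Irf5 at 4 h and Irf4 at 0 h were the other genotype differences of over 1 on the log2 scale outside Irf7, and neither passed. Irf5 at 4 h was lower in each cKO library than in each WT library (1.53 ± 0.449 TPM in cKO against 3.66 ± 0.569 TPM in WT, SD, n = 3 each, 41 and 91 summed counts). The log2 fold change was −1.27 (95% interval −2.11 to −0.43, adjusted p = 0.163), and it was called by DESeq2 (adjusted p = 0.0272) and with no filter on low counts (0.0123). Irf4 at 0 h was at 1.99 ± 1.32 TPM in cKO cells and 0.933 ± 0.366 TPM in WT cells (SD, n = 3 each), with overlapping ranges. Its log2 fold change of 1.10 (0.17 to 2.04, adjusted p = 0.544) was called without mouse 1 (1.52, adjusted p = 0.000429), the cKO library with the lowest value, and was 0.39, not called, without cKO mouse 2.

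No other genotype difference was called, and the 95% intervals give the sizes they allow. Irf3 was the most tightly bounded, with a log2 fold change between −0.31 and 0.25 over the 95% intervals of all 4 times. Irf9 was 0.09, 0.26, 0.23 and 0.13 at 0, 4, 8 and 24 h, never called, and at 4 h each cKO library (80.1 to 102 TPM) lay above each WT library (69.1 to 78.3 TPM; adjusted p = 0.479). Irf4 from 4 h on lay between −0.58 and 0.49, Irf1 at all times between −0.50 and 0.54, and Irf2 at all times between −0.61 and 0.84. For Irf8 the 0 h interval ran from −1.42 to 1.54 and the 4 h interval from −0.91 to 0.24. Its 8 h interval ran from −0.46 to 0.70 and its 24 h interval from −0.52 to 0.62. The 4 h value of −0.33 was −0.09 without mouse 3. Irf5 lay between −0.45 and 1.71 at 0 h, between −0.81 and 1.11 at 8 h and between −0.53 and 0.53 at 24 h. None of the 32 interaction tests of a member was called by edgeR or by DESeq2 (4 at an unadjusted p under 0.05 in edgeR). In edgeR 0.00872%, 0.00872%, 0.0174% and 0.00872% of all genes were called at 4, 8 and 24 h against 0 h and at 24 h against 8 h. At an unadjusted p under 0.05, 816, 912, 492 and 510 of all 11470 genes passed. Without mouse 1 the interaction of Irf4 was called at 8 h (−1.57, adjusted p = 0.00887, −1.25 with all mice) and at 24 h against 0 h (−1.46, adjusted p = 0.0195, −1.06 with all mice). Without mouse 2 it was −0.56 at 8 h and −0.35 at 24 h against 0 h, not called.

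The 3 libraries that stood apart touched these genes. At 4 h, cKO mouse 3 had the lowest TPM of its group for Irf5 and Irf8 and the highest for the other members. At 8 h, cKO mouse 2 had the lowest TPM of its group for Irf1, Irf2, Irf7 and Irf9, and WT mouse 5 likewise. On the log2 CPM scale WT mouse 5 was the lowest for Irf2, Irf7 and Irf9 and the highest for Irf1 (8.45, beside 8.27 and 8.39 in WT mice 4 and 6). At 0 h, cKO mouse 2 had the highest value of its group for every member but Irf3. Its summed TPM of type I interferon-stimulated genes was also the highest, 3424 TPM beside 2390 and 1844 TPM in cKO mice 1 and 3, against 2319, 1931 and 2101 TPM in WT mice 4, 5 and 6. The part of this library in the 0 h values was not tested beyond leaving it out.

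Genes known to respond to type I interferon declined with Irf7 and Irf9. Of the 29 listed, 27 were tested, and at 24 h against 0 h 26 were lower and 0 higher in each genotype, with a median log2 fold change of −4.18 in cKO and −4.48 in WT cells against −0.07 and −0.08 over all genes tested, of which 39.0% were lower in cKO and 40.1% in WT cells. Samd9l was at 0.93 against 39.5 TPM in cKO (−5.34, SE 0.177, adjusted p = 9.26e-25) and at 1.03 against 34.5 TPM in WT cells (−5.01, SE 0.174, adjusted p = 3.28e-24). Cmpk2, a mitochondrial nucleotide kinase, averaged 0.02 against 16.4 TPM in cKO cells and 0.0367 against 14.3 TPM in WT cells. Most of the list was lower already at 4 h, with 25 lower and 1 higher in cKO and 23 lower and 1 higher in WT cells, beside 27.6% of all genes lower in cKO and 29.1% in WT cells. The list's 4 h median was −1.32 in cKO and −1.43 in WT cells.

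Between the genotypes none of these 27 genes was called by edgeR at any time. At an unadjusted p under 0.05, 7, 9, 5 and 4 of them passed at 0, 4, 8 and 24 h. Of all 11470 genes tested, 845, 1354, 1139 and 423 passed. Among the 27, DESeq2 called 1 at 0 h and 1 at 24 h, and its share over all genes is not given here. Of their fold changes between cKO and WT cells, positive ones numbered 24, 25, 26 and 17 of 27, with medians of 0.20, 0.46, 0.43 and 0.09, while 49.0%, 49.5%, 45.1% and 52.1% of all genes tested were positive. The 0 h value depended on mouse 2: without it the median was −0.02 with 12 positive. The summed TPM of the list was 1058, 1179 and 986 in cKO and 957, 885 and 919 in WT cells at 4 h, without overlap. At 8 h it was 950.3, 772 and 714 in cKO and 749, 611 and 647 in WT cells, with overlapping ranges. At 24 h it was 509.8, 425 and 399 in cKO and 365, 376 and 344 in WT cells, without overlap. Most of the 24 h sum was Bst2 alone, which averaged 256 TPM in cKO and 222 TPM in WT cells, so that sum does not describe the list.

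**Figure D4:**
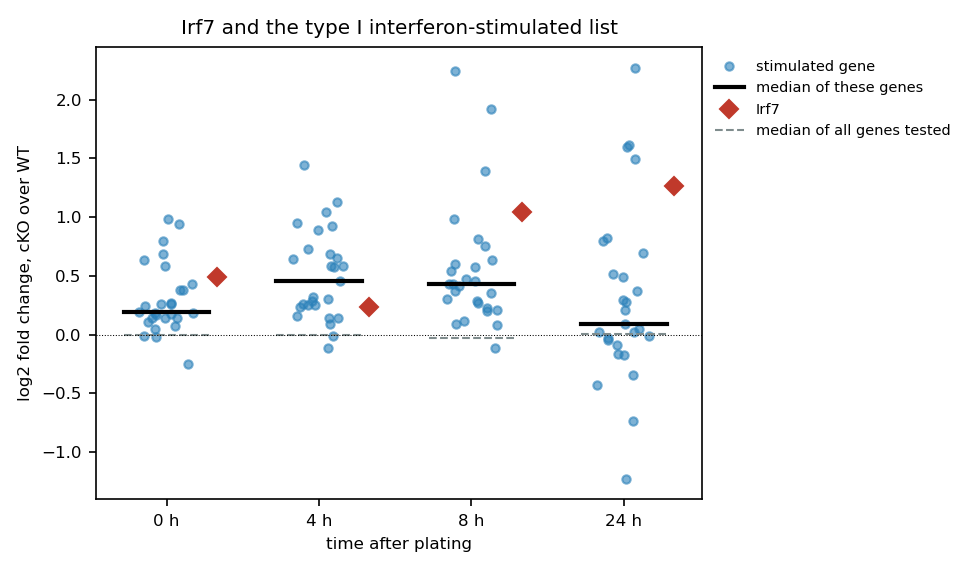
Log2 fold change of cKO over WT cells (vertical axis) at 0, 4, 8 and 24 h after plating (horizontal axis) for the 27 type I interferon-stimulated genes tested (circles, spread sideways for clarity), their median (black line), Irf7 (diamond) and the median of all genes tested (dashed). The list's medians are 0.20, 0.46, 0.43 and 0.09, and Irf7 lies at 0.49, 0.23, 1.04 and 1.27 (the last is 0.35 without cKO mouse 1).

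Genes that interferon gamma induces through IRF1 were mostly higher at 4 h, when Irf1 peaked. Of 21 listed, 20 were tested, and at 4 h over 0 h 14 were higher and 4 lower in each genotype (median 1.32 in cKO, 1.56 in WT). Of all genes tested, 29.6% were higher and 27.6% lower in cKO, and 30.0% higher and 29.1% lower in WT cells (median −0.002 in cKO, −0.04 in WT). Gbp5, a guanylate-binding protein, was at 12.5 against 2.22 TPM in cKO (2.54, SE 0.250, adjusted p = 6.54e-11) and 13.7 against 2.18 TPM in WT cells (2.74, SE 0.257, adjusted p = 1.94e-11). Cd274, which encodes PD-L1, was at 178 against 18.1 TPM in cKO cells (3.36, SE 0.302, adjusted p = 3.69e-08). The immunoproteasome subunits Psmb8 and Psmb10 were among the 4 lower, Psmb10 at 80.5 against 249 TPM in cKO (−1.56, SE 0.133) and 82.4 against 219 TPM in WT cells (−1.32, SE 0.133). At 24 h over 0 h 3 were higher and 10 lower in cKO, and 4 higher and 9 lower in WT cells. B2m and the peptide transporter gene Tap2 were among the lower. Of all genes tested, 37.3% were higher and 39.0% lower in cKO, and 36.9% higher and 40.1% lower in WT cells. Between the genotypes edgeR called 0 of 20 at each time, and DESeq2 likewise called 0. At an unadjusted p under 0.05, 2, 1, 1 and 3 passed in edgeR, beside 845, 1354, 1139 and 423 of all 11470 genes.

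Of the interferon genes, Ifng, the T cell interferon that induces Irf1 and Irf8 in other cells, averaged 0.10 TPM in cKO cells and 0.297 TPM in WT cells at 0 h and 461 TPM in cKO cells and 243 TPM in WT cells at 4 h, while Ifnb1, the fibroblast-type interferon, stayed at or under 0.133 TPM in every group. Of the 14 tested genes of interferon ligands, receptors and signalling (15 listed), 7 were higher and 3 lower at 4 h over 0 h in cKO and 7 higher and 5 lower in WT cells, where 57.2% of all genes in cKO and 59.0% in WT cells were called. Jak2, the kinase of the interferon gamma receptor, was at 66.0 against 12.1 TPM in cKO (2.55, SE 0.121) and 62.3 against 10.6 TPM in WT cells (2.67, SE 0.123). At 24 h over 0 h 4 were higher and 9 lower in each genotype (76.3% of all genes called in cKO, 77.0% in WT), the lower ones including Jak1 (50.6 against 257 TPM in cKO, 46.6 against 241 TPM in WT) and the type I receptor gene Ifnar1 (22.4 against 84.1 TPM in cKO, 21.7 against 87.0 TPM in WT).

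Ifng was the gene of this list that was called between the genotypes. It was higher in cKO at 4 h (461 TPM in cKO against 243 TPM in WT, log2 0.88, SE 0.190, adjusted p = 0.0335) and at 24 h (274 TPM in cKO against 128 TPM in WT, 1.09, SE 0.192, adjusted p = 0.0268). At 8 h it was not called (475 TPM in cKO against 333 TPM in WT, 0.44, adjusted p = 0.440). The 4 h call was lost without mouse 1, 2, 3, 5 or 6 (adjusted p = 0.0802, 0.140, 0.0683, 0.198 and 0.180) and without the 8 h libraries of mice 2 and 5 (0.0517). The 24 h call was lost without mouse 1, 2, 3 or 5 (0.234, 0.0529, 0.102 and 0.327) and without those 8 h libraries (0.0749). Limma on log2(TPM + 0.1) called neither (0.448 and 1), and a fit of only the groups compared did not call the 24 h value (0.272).

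Sensors, adaptors and kinases that act upstream of IRF3, IRF5 and IRF7 mostly fell. Of 18 tested (20 listed), 3 were higher and 13 lower at 24 h over 0 h in cKO, and 3 higher and 14 lower in WT cells, beside 39.0% of all genes lower in cKO and 40.1% in WT cells. Ddx58, the RNA sensor RIG-I, was at 1.28 against 49.9 TPM in cKO (−5.21, SE 0.240, adjusted p = 5.57e-15) and at 0.723 against 42.9 TPM in WT cells (−5.83, SE 0.260, adjusted p = 2.94e-15). Ikbke, a kinase of IRF3 and IRF7, was at 24.7 against 149 TPM in cKO (−2.51, SE 0.093) and 24.3 against 149 TPM in WT cells (−2.56, SE 0.093). Tank, an adaptor of that kinase, was among the 3 higher in WT cells, 62.4 against 33.9 TPM (0.93, SE 0.104, adjusted p = 4.33e-10). No gene of the list was called between the genotypes by edgeR, and DESeq2 called 2 over the 4 times. The share of all genes that DESeq2 called is not given here, so nothing is read from that number. At an unadjusted p under 0.05, 2, 2, 2 and 1 passed in edgeR at 0, 4, 8 and 24 h. Of all 11470 genes, 845, 1354, 1139 and 423 passed.

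Among partners and inducers of IRF4 and IRF8, calls went both ways. Of 15 tested (16 listed), 8 were higher and 5 lower at 4 h over 0 h in cKO, and 7 higher and 4 lower in WT cells, beside 29.6% of all genes higher and 27.6% lower in cKO and 30.0% and 29.1% in WT cells. The NF-kappaB subunit Rel, known to induce Irf4, was at 222 against 10.5 TPM in cKO (4.49, SE 0.120, adjusted p = 2.90e-27) and 209 against 10.5 TPM in WT cells (4.41, SE 0.121, adjusted p = 7.34e-27). For Nfkb1 the log2 fold change was 2.62 (SE 0.108) in cKO and 3.14 (SE 0.111) in WT cells. Junb, an AP-1 subunit that binds beside IRF4 and BATF, was the gene of this list called between the genotypes, lower in cKO at 0 h (326 TPM in cKO against 443 TPM in WT, −0.48, SE 0.094, adjusted p = 0.0071). That call was lost without mouse 1, 5 or 6 (adjusted p = 0.142, 0.0545 and 0.167) and in a fit of only the groups compared (0.110).

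Of 10 tested genes described as controlled by IRF4 (12 listed), 6 were higher and 3 lower at 4 h over 0 h in each genotype. Of all genes, 29.6% were higher and 27.6% lower in cKO, and 30.0% higher and 29.1% lower in WT cells. Hk2, a hexokinase of glycolysis, was at 17.7 against 0.417 TPM in cKO (5.41, SE 0.198) and 18.2 against 0.447 TPM in WT cells (5.47, SE 0.205), and Tbx21, which encodes T-bet, at 80.8 against 3.62 TPM in cKO (4.56, SE 0.392) and 117 against 4.43 TPM in WT cells (4.80, SE 0.390). Foxo1, a factor of resting T cells, was at 10.5 against 35.6 TPM in cKO (−1.68, SE 0.109) and 9.46 against 38.7 TPM in WT cells (−1.92, SE 0.111). Of the co-repressors that bind IRF2, Irf2bp1 was higher at 24 h over 0 h and Irf2bp2 and Irf2bpl lower in each genotype. Neither list had a gene called between the genotypes by edgeR, and DESeq2 called 2 of the IRF4-controlled genes. The share of all genes that DESeq2 called is not given here, so nothing is read from that number. At an unadjusted p under 0.05 in edgeR, 7 tests of the 10 IRF4-controlled genes and 1 of the 3 co-repressors passed over the 4 times. Of all 11470 genes, 845, 1354, 1139 and 423 passed at 0, 4, 8 and 24 h.

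Over all 24 libraries, the members fell into groups by the shape of their time course. Pearson's r of log2 CPM between members, given as a description since libraries share times and mice, was 0.97 for Irf4 with Irf8, 0.97 for Irf2 with Irf9, 0.96 for Irf7 with Irf9 and −0.86 for Irf5 with Irf7. Among 8419 other genes, those most like Irf4 were Slc7a1 (0.995), a cationic amino acid transporter, Mfsd2a (0.989) and the chemokine gene Xcl1 (0.988). Those most like Irf8 were Noc4l, Nfkb2, an NF-kappaB subunit, and Il2ra, the high-affinity IL2 receptor chain (0.982 each). Irf1 was most like the interferon-inducible GTPase gene Tgtp1 (0.982), Gna13 (0.969) and Wnk1 (0.962).

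Genes like Irf7 included Pyhin1 (0.993) and Pydc4 (0.990). Irf9 was most like Stk38, Nfe2l2 and Helz2 (0.987 each), Irf2 like Cep97 (0.981), Pcmtd2 (0.977) and Jak1 (0.975), and Irf3 like the ribosomal protein gene Rps7 (0.971), Alyref2 and the T cell adaptor gene Lat (0.962 each). Irf5 had the weakest neighbours, Ncaph, a condensin subunit of mitotic chromosomes (0.935), Msh6, a DNA mismatch repair protein (0.932), and Cul7 (0.928). Of these, Ncaph was at 62.9 TPM in cKO cells and 66.0 TPM in WT cells at 24 h, against 3.51 TPM in cKO and 3.32 TPM in WT cells at 0 h.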

How the data were processed

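The deposited tables give, per gene and library, an expected count, a TPM value and an FPKM value, per the file headers, which are those of RSEM. The submitters' processing notes name STAR, RSEM, DESeq2 and mm10, with versions not given in the sources used here. Libraries were made with Smart-seq2 from 1000 sorted cells, per the labels' protocols, without molecular identifiers and without marking the strand, so a level covers PCR copies and counting error cannot be separated from them. Each library's group came from its labels. The deposited FPKM values were not used.

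After rounding to whole numbers, the expected counts were fitted with edgeR 4.0.16 (R 4.3.3) over all 24 libraries with 8 groups, filterByExpr (11470 genes kept), TMM factors, robust glmQLFit and glmQLFTest. P-values were adjusted by Benjamini-Hochberg over all genes tested within each of 18 comparisons, and a gene was called at an adjusted p under 0.05. SEs and 95% intervals come from that fit. TPM values are deposited values and describe levels per length. Alternatives used DESeq2 1.42.0, limma 3.58.1 on log2(TPM + 1) and log2(TPM + 0.1), other filters and scalings, and left out each mouse or the libraries that stood apart.

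The members and gene lists were chosen with earlier results of these data known. Named genes were the 8 members in every comparison, up to 4 called genes of each list with the smallest adjusted p in a comparison, Tcf7, and for each member the 3 other genes with the highest Pearson r of log2 CPM (prior count 2). Genes compared for r had a mean of at least 5 TPM in their highest group. Psmb8, Tap2 and Ifnb1 were named after their values were seen. Some items that these rules name are not reported here. Each mouse gave 1 library per time, so mice pair the times. Deviations of the same mouse from its group means correlated at −0.085 to 0.163 (median 0.018) over 36 pairs of libraries.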

Additional observations from a re-analysis of the deposited data

How the results depend on the processing

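Of the 144 tests of a member, 64 were called, of which 52 kept their call in every alternative run and 12 lost it in at least 1, and 80 were not called, of which 15 gained a call in at least 1. No called value changed sign. Members called between the genotypes numbered 1, against 2 with DESeq2, 3 with no filter on low counts, 0 with limma on log2(TPM + 0.1), 0 without the 8 h libraries of mice 2 and 5, and 0 to 2 when leaving out each mouse. Interactions called numbered 0, and 0 to 2 when leaving out each mouse. With the mouse as a replicate block, 19 members were called against 0 h in cKO and 20 in WT cells, 11 and 13 for successive steps, and 0 interactions, beside 19, 21, 10, 13 and 0 without the block. Its changed calls were Irf9 at 4 h over 0 h in WT and Irf4 at 8 h over 4 h in cKO cells. Between the genotypes, the genes of ligands, receptors and signalling called (2) became 5 with DESeq2, 6 with no filter, 0 with limma on log2(TPM + 0.1), 1 without those 8 h libraries and 0 to 3 without each mouse. Sensors (0) became 2 with DESeq2, 4 with no filter, 1 with limma at either pseudocount, 1 without those 8 h libraries and 0 to 2 without each mouse. Type I stimulated genes (0) became 2 with DESeq2, 5 with no filter, 3 in fits of only the groups compared, 1 with limma on log2(TPM + 0.1) and 0 to 5 without each mouse, and interferon gamma-stimulated genes (0) became 1 with no filter, 3 in fits of only the groups compared and 0 to 2 without each mouse. Partners of IRF4 and IRF8 (1) became 2 with RLE size factors, 2 with DESeq2, 3 with no filter, 2 in fits of only the groups compared, 2 without those 8 h libraries and 0 to 2 without each mouse. IRF4-controlled genes (0) became 2 with DESeq2, 2 with no filter, 2 in fits of only the groups compared and 0 to 1 without each mouse. How many of all genes each alternative called is not given here, so these changed counts are not read as particular to the members or lists. The cause was not tested. With no filter the median log2 fold change of all genes at 24 h over 0 h was −0.34 in cKO and −0.53 in WT cells, against −0.07 and −0.08. The list counts and the fits without libraries that stood apart were added after seeing the data. With 3 mice a group, low counts limited Irf4, Irf5 and Irf8 at 0 h and Irf7 at 24 h.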
